A study of Chlorocebus sabaeus with 45 samples.

Results

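The granule protein genes of neutrophils were followed in whole blood of vervets at 3 time points, ordered by the granule in which their proteins are stored. Members were chosen by gene symbol, with no measured value in the rule. They were 4 genes of primary granules (MPO, ELANE, CTSG and BPI), 5 of secondary granules (LTF, CAMP, LCN2, OLFM4 and MMP8) and 1 of tertiary granules (MMP9), 10 of the 33994 genes listed in the files. All 10 had enough fragments to be among the 18753 genes tested. Blood came from 15 juvenile male vervets (Chlorocebus sabaeus), an Old World monkey, each born wild on St. Kitts and taken from a troop of its own. Each animal gave a sample on day 0 (Tp1) in the field just after capture under ketamine and xylazine, and on day 3 (Tp2) and day 14 (Tp4) while housed singly in quarantine and sedated with dexmedetomidine and midazolam. Any difference from day 0 therefore holds relocation, place and sedative together, which cannot be told apart. No animals that stayed without relocation were sampled on days 3 and 14.

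Neutrophils fill their granules in sequence while they mature in the bone marrow. Genes of the primary (azurophil) granules are transcribed at the promyelocyte stage, those of the secondary (specific) granules at the myelocyte and metamyelocyte stages, and those of the tertiary (gelatinase) granules in band and segmented cells. The proteins persist in the circulating neutrophil after most of the early transcripts are gone, which is why transcripts of early granule genes in blood are commonly read as a trace of immature myeloid cells. In whole blood RNA, however, fewer cells of a type and less RNA per cell cannot be told apart.

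Libraries held 13216280 to 31469337 fragments on genes, with a median of 22785770. Levels are given as scaled FPKM, the deposited FPKM (fragments relative to gene length and to the library's total on genes) divided by the library's factor from the trimmed mean of M values (TMM). Differences between time points are log2 fold changes of scaled FPKM + 0.1 from limma with the animal as a block, with p-values adjusted by the Benjamini-Hochberg method over all tested genes, and changes at an adjusted p under 0.05 are called. Folds come from these values and can differ from the ratio of the group medians. Neutrophil transcripts were present throughout: each of the 15 mature neutrophil marker genes was tested, and their summed level per library lay at 1991 to 46410 scaled FPKM on day 0, 1031 to 7852 on day 3 and 1196 to 5312 on day 14.

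Levels at baseline spanned a wide range, from MMP9 and CAMP at the top to MPO, ELANE and CTSG at the bottom, and BPI of the primary granules stood level with LTF and LCN2 of the secondary ones. Among the 15 animals on day 0, MMP9 (gelatinase B) had a median of 91.0 scaled FPKM and CAMP, which encodes the antimicrobial peptide cathelicidin, had 87.9, and MMP9 was the higher of the pair in 8 animals. MMP8, the neutrophil collagenase, followed with a median of 16.7 and was lower than CAMP in 15 of 15 animals. LTF (lactoferrin), LCN2 (lipocalin 2, which binds bacterial siderophores) and BPI (which permeabilizes Gram-negative bacteria) were close together with medians of 4.61, 4.37 and 4.24, and neighbours in this order were not separated, LTF exceeding LCN2 in 5 animals and LCN2 exceeding BPI in 10. OLFM4 (olfactomedin 4, present in a subset of neutrophils) had a median of 0.529. The lowest levels were those of the 3 serine-protease and peroxidase genes: neutrophil elastase (ELANE) at 0.391, myeloperoxidase (MPO) at 0.208 and cathepsin G (CTSG) at 0.131. These medians rest on 23, 14 and 8 fragments per library, compared with 4067 for MMP9. On day 14 CAMP and MMP9 led again with 52.7 and 33.1, and OLFM4, ELANE, MPO and CTSG again had the 4 lowest medians, but OLFM4 exceeded ELANE in 5 of 15 animals, compared with 13 on day 0. On day 3 LTF stood next after CAMP and MMP9 with 26.2, and was lower than MMP9 in 11 animals. CTSG and OLFM4 had nearly equal medians of 0.999 and 0.979 on that day, and CTSG was the higher of the pair in 4 animals.

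**Figure D1:**
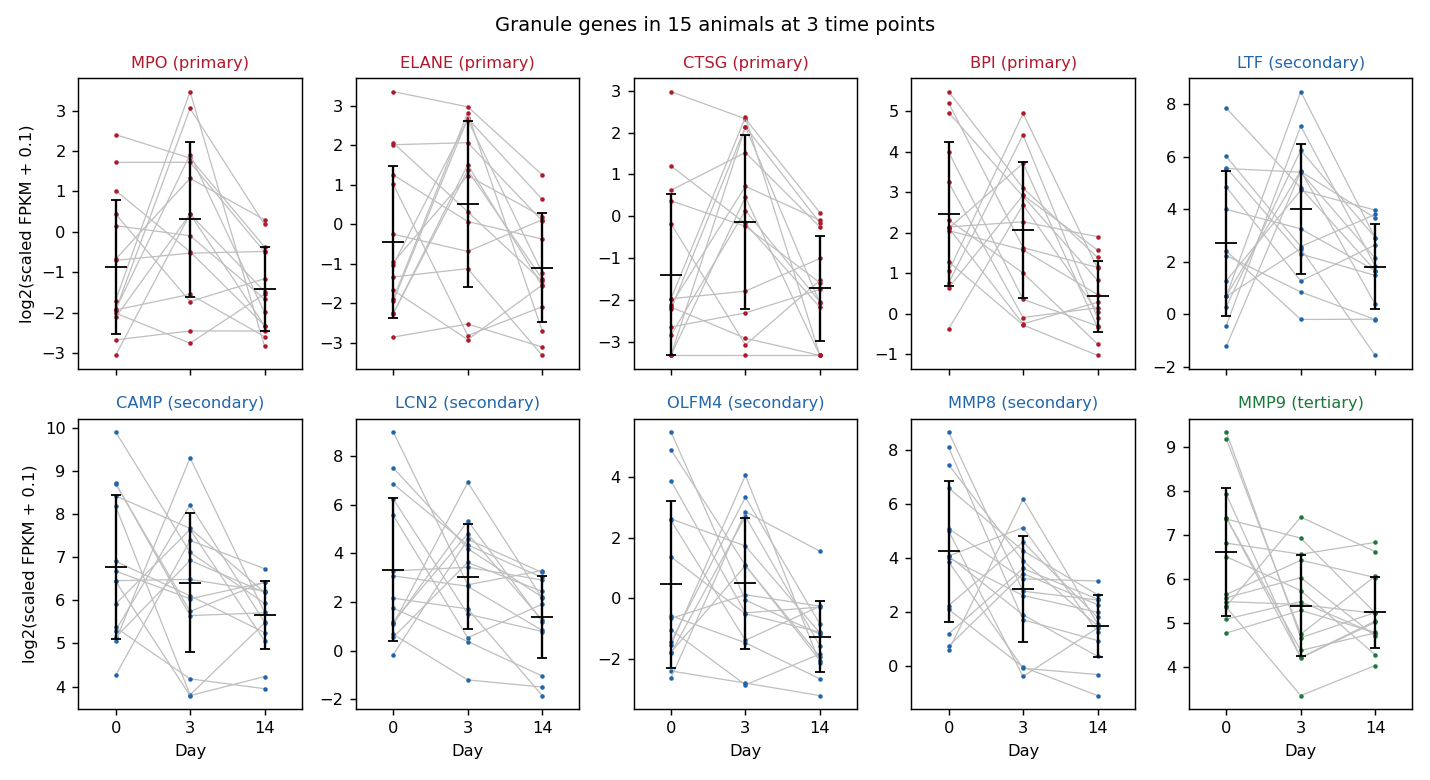
Level of each granule gene as log2(scaled FPKM + 0.1) on days 0, 3 and 14. Each grey line joins the 3 samples of 1 animal, the short black bar is the mean of 15 animals and the whisker is ±1 SD. The day 14 samples sit closer together than those of day 0 and day 3 in each of the 10 panels.

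Animals differed from each other by much more than the typical gene. On day 0 the SD of log2 levels between the 15 animals was 1.45 for MMP9 and between 1.66 and 2.94 for the other 9 members, compared with a median of 0.43 over all tested genes. LCN2 ranged from 0.793 to 513 scaled FPKM on that day, and OLFM4 from 0.0611 to 44.9. On day 14 each of the 10 members had its smallest SD (0.80 for CAMP up to 1.69 for LCN2), a pattern shared by 38.2% of all tested genes. The highest day 14 level of CAMP was 107, compared with 968 on day 0 and 637 on day 3.

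The animals at the top differed by time point and partly by granule. Animal 5 led on day 0 for the summed primary genes (54.2 scaled FPKM against a median of 5.38) and the summed secondary genes (1440 against 130), yet its MMP9 was 47.7, below the group median. For MMP9, animals 7, 15 and 11 were highest on day 0, with 648, 583 and 243. On day 3 animals 3, 9 and 6 were highest both in the summed primary genes (49.5, 44.2 and 27.1 against a median of 10.9) and in the summed secondary genes (1202, 516 and 345 against 113). None of these 3 animals was among the top 3 on day 0 for any of the granules.

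On day 3 vs. day 0 MMP9 fell and no other member passed the threshold. This was 1 of 10 called, compared with 19.6% of all tested genes called in either direction (10.3% higher and 9.3% lower). By unadjusted limma p-values under 0.05, 2 members were higher (MPO and CTSG) and 2 lower (MMP8 and MMP9), and limma with voom weights also called 0 members higher, with 0 at an unadjusted p under 0.05. The median log2 fold change was 1.06 for the 4 primary genes, −0.29 for the 5 secondary genes and −1.22 for MMP9, beside 0.01 over all tested genes. The classes overlapped: primary genes ran from −0.40 to 1.26 and secondary genes from −1.40 to 1.32.

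MPO, whose product makes hypochlorous acid in the phagosome, lay between 0.0203 and 5.21 scaled FPKM on day 0 (median 0.208) and between 0.0481 and 10.99 on day 3 (median 1.26). The 2 ranges overlapped almost fully, and the change had a log2 value of 1.17 (standard error 0.47, adjusted p = 0.0781 from limma), with 10 animals higher. CTSG ranged from 0 to 7.79 on day 0 (median 0.131) and from 0 to 5.05 on day 3 (median 0.999), a log2 change of 1.26 (standard error 0.51, adjusted p = 0.0795). It was listed at 0 in 3 libraries of day 0 and 1 of day 3, where 0 fragments allow up to 0.0485 to 0.0738 and 0.0502 scaled FPKM. ELANE went from a median of 0.391 (0.0379 to 10.2) to 2.25 (0.0320 to 7.75), a log2 change of 0.96 (adjusted p = 0.191). The group medians of these 3 genes lay further apart than the typical animal moved, since the median within-animal log2 change was 0.22 for MPO, 0.34 for CTSG and 0.21 for ELANE. BPI, the fourth primary gene, differed from them in size and sign: its medians were 4.24 (0.671 to 44.5) and 4.72 (0.724 to 30.6), with a log2 change of −0.40 (adjusted p = 0.618) and 9 animals lower.

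Among the secondary genes LTF had the largest positive value. Its level ran from 0.328 to 230 scaled FPKM on day 0 (median 4.61) and from 0.771 to 355 on day 3 (median 26.2), and the log2 change of 1.32 had a standard error of 0.81 (adjusted p = 0.266), with 7 animals higher and 8 lower. The change of single animals ran from −3.58 to 7.80 on the log2 scale. CAMP (−0.36), LCN2 (−0.29) and OLFM4 (0.03) were near 0 on average, with adjusted p = 0.648, 0.817 and 0.985, and each was lower in 9 animals. MMP8 went from a median of 16.7 (1.38 to 410) to 9.23 (0.657 to 72.3), a log2 change of −1.40 (standard error 0.66, adjusted p = 0.135).

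MMP9, which degrades gelatin and basement membrane collagen, fell from a median of 91.0 scaled FPKM (27.4 to 649) to 42.9 (10.2 to 170). By limma the fall was 2.33-fold (log2 fold change −1.22, standard error 0.39, adjusted p = 0.0234), and 10 of 15 animals were lower (two-sided exact sign-flip test over animals, unadjusted p = 0.0419). The median within-animal log2 change was smaller, at −0.43. The ranges overlapped, and the largest falls were those of animals 7, 15 and 11, at −4.67, −4.43 and −3.71. The call was lost when animal 2, 4, 7, 11 or 15 was left out (log2 fold changes of −0.98 to −1.10, adjusted p = 0.0556 to 0.0679), and with the libraries' RNA integrity numbers as a covariate (−1.10, adjusted p = 0.0703). These numbers, taken from the study's supplement, were themselves higher on day 3 and higher again on day 14 on average, so that the covariate and the time point cannot be fully told apart. With that covariate MPO and CTSG passed instead, at 1.44 and 1.58 (adjusted p = 0.0477 and 0.0429). MPO and CTSG passed as well without animal 2 (1.41 and 1.56, adjusted p = 0.0421 and 0.0333), and MMP8 passed without animal 3 (−1.90, adjusted p = 0.0271).

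**Figure D2:**
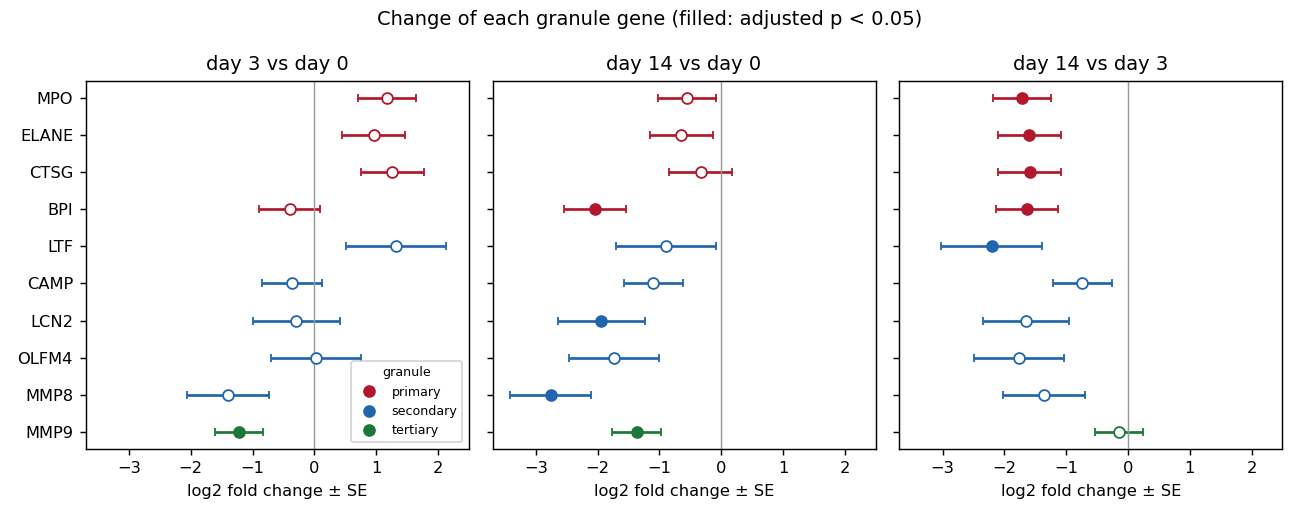
Log2 fold change of each granule gene (horizontal axis, with ±1 standard error from limma) for the 3 pairs of days, coloured by granule. Filled circles had an adjusted p under 0.05: MMP9 on day 3 vs. day 0, BPI, LCN2, MMP8 and MMP9 on day 14 vs. day 0, and MPO, ELANE, CTSG, BPI and LTF on day 14 vs. day 3.

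Behind these averages, single animals moved in opposite directions. On day 3 vs. day 0 all 10 genes were higher in animals 1, 3, 9 and 14 and all 10 were lower in animals 2 and 11, and the other 9 animals were mixed. In animal 3 the log2 change was 5.0 for MPO, 7.80 for LTF and 2.02 for MMP9. In animal 11 it was −1.51, −3.29 and −3.71. Within both animals the genes moved together, and of these 3 genes MMP9 moved least in animal 3 and most in animal 11. Other members fell further than MMP9 in animal 11: MMP8 (−6.41), OLFM4 (−5.56) and LCN2 (−4.74). In animal 2 LTF (−3.58) also fell more than MMP9 (−3.17). From day 3 to day 14 the 10 genes were all lower in 8 animals (1, 3, 5, 6, 9, 12, 13 and 14) and all higher in animal 2. Some of these changes rest on libraries that stood apart. The day 0 library of animal 9 had 30752 genes above 0 and the highest TMM factor (1.492). For animal 4 the day 14 library had 31402 genes above 0, and the next highest library had 26792. Against day 0, animal 9 changed by 5.17 for MPO and 7.59 for LTF on day 3.

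**Figure D3:**
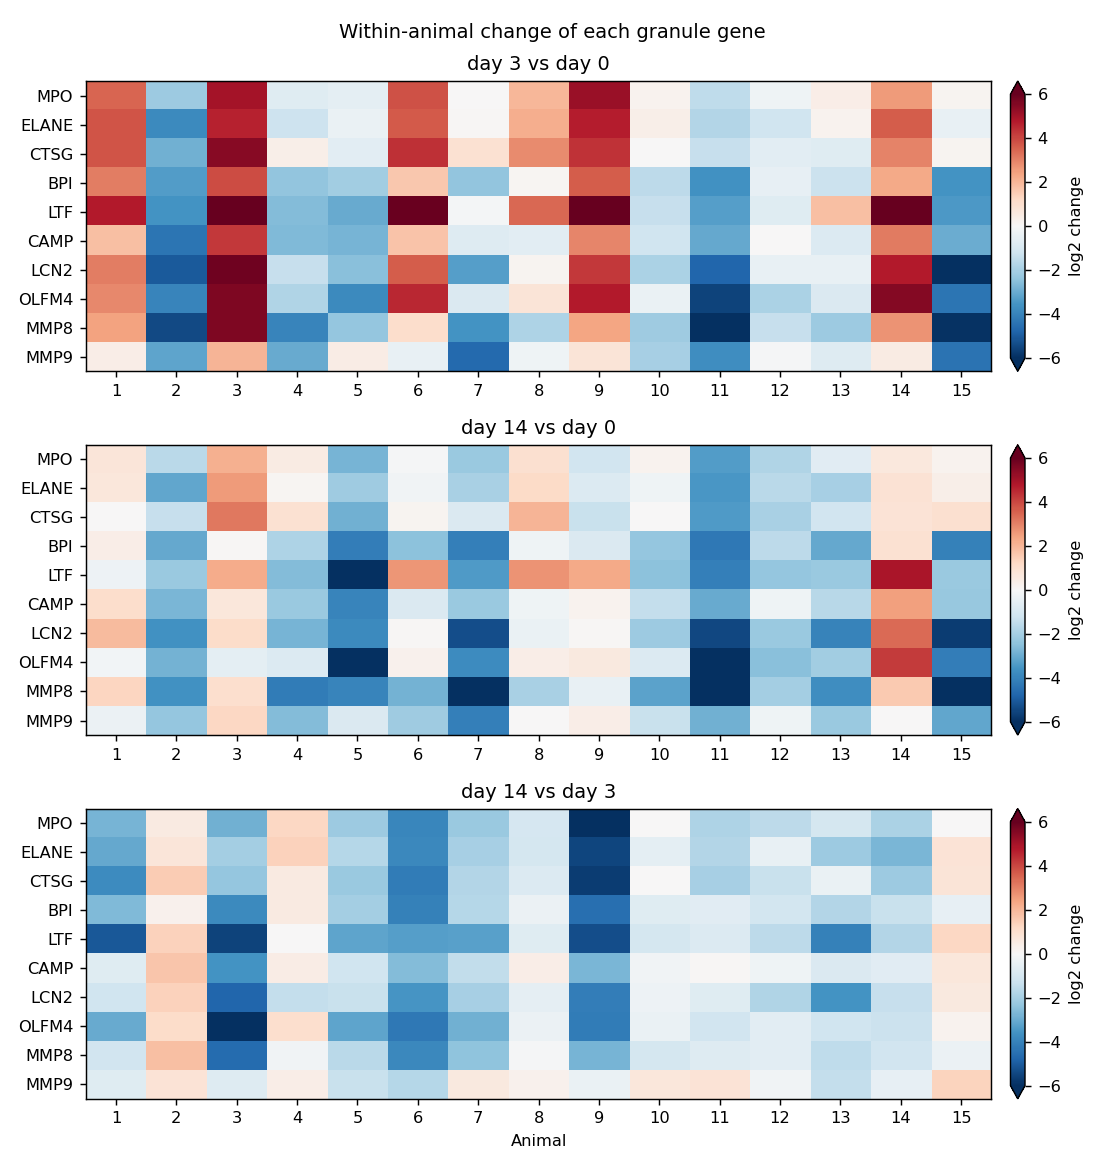
Within-animal log2 change of each granule gene (rows) in each of the 15 animals (columns), with red higher and blue lower and the scale ending at ±6. On day 3 vs. day 0 animals 1, 3, 9 and 14 are red throughout and animals 2 and 11 blue throughout, while on day 14 vs. day 3 there are 8 animals that are blue in every row.

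Each of the other 9 members was also set against MMP9, the 1 tertiary gene, within the same library, which does not depend on the scaling between libraries beyond the added 0.1. These ratios were added after the members' values had been seen and are given as a description, with no test. On day 3 vs. day 0 the mean log2 ratio to MMP9 was higher by 2.40 ± 1.70 for MPO (SD, n = 15, higher in 13 animals), by 2.18 ± 1.87 for ELANE (12 animals) and by 2.48 ± 2.01 for CTSG (13 animals). Within the primary granules BPI had a smaller value, 0.82 ± 1.46 (11 animals). The secondary genes covered the whole range, with LTF at 2.54 ± 3.11 (higher in 12 animals), OLFM4 at 1.25 ± 2.75, LCN2 at 0.93 ± 2.34, CAMP at 0.86 ± 1.75 and MMP8 at −0.18 ± 2.01 (lower in 9 animals). From day 3 to day 14 all 9 ratios were lower on average, from −0.59 ± 1.07 for CAMP (lower in 10 animals) to −2.06 ± 1.70 for LTF (lower in 14 animals). Over the whole interval from day 0 to day 14 they ran from −1.39 ± 1.58 for MMP8 (lower in 13 animals) to 1.04 ± 1.91 for CTSG (higher in 11 animals).

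**Figure D4:**
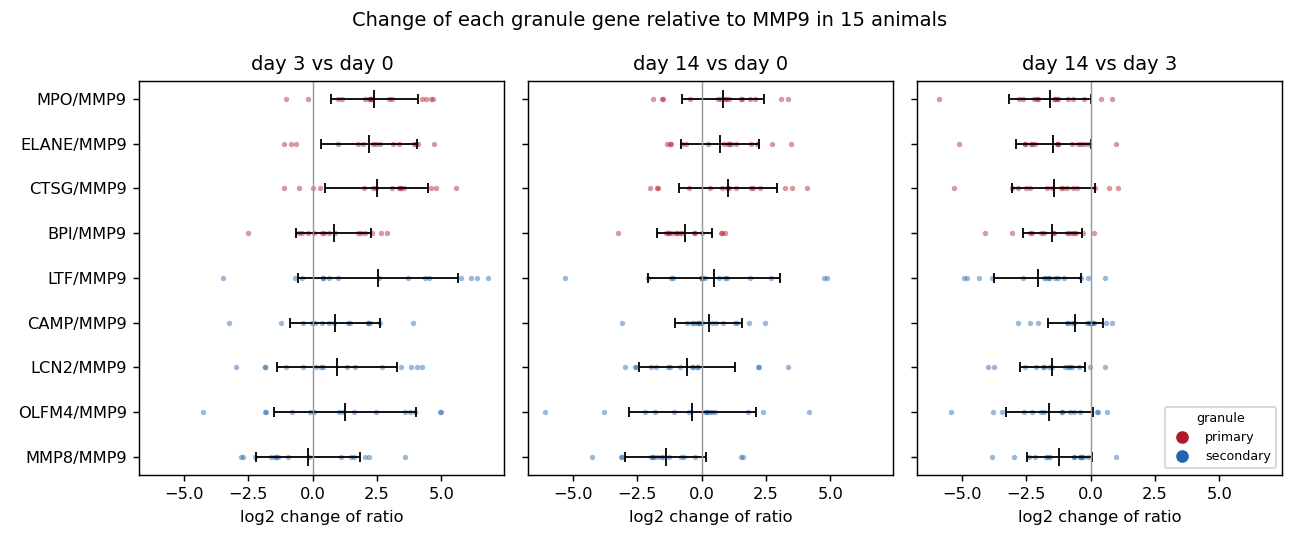
Change in the log2 ratio of each granule gene to MMP9 for the 3 pairs of days, with 1 point per animal coloured by granule and the black bar and whisker giving the mean ±1 SD of 15 animals. On day 3 vs. day 0 the means run from −0.18 for MMP8 to 2.54 for LTF, and on day 14 vs. day 3 all 9 means lie below 0.

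Between day 3 and day 14 the 4 primary genes and LTF fell. Of the 10 members 5 were called, all lower, compared with 24.0% of all tested genes called (9.82% lower). All 10 were lower in sign, and the median was −1.62 for the primary genes, −1.65 for the secondary genes and −0.15 for MMP9, beside −0.02 over all tested genes. At an unadjusted limma p under 0.05, 8 members were lower (5 with voom weights). No member was higher, also at an unadjusted p under 0.05, and limma with voom weights called 0 higher.

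MPO fell 3.30-fold, with a log2 fold change of −1.72 (adjusted p = 0.00971 in limma, standard error 0.47) and 12 of 15 animals lower. Its median was 1.26 scaled FPKM (0.0481 to 10.99) on day 3 and 0.245 (0.0404 to 1.13) on day 14. The highest MPO level of day 14 was below the day 3 median. BPI fell 3.10-fold (log2 fold change −1.63, adjusted p = 0.0177) and was lower in 13 animals, with a day 14 median of 1.12 (0.391 to 3.63). ELANE changed by −1.60 (adjusted p = 0.0218) to a median of 0.282 (0 to 2.28), and CTSG by −1.59 (adjusted p = 0.0234) to 0.198 (0 to 0.965). On day 14 CTSG was at 0 in 4 libraries and ELANE in 1, where 0 fragments allow up to 0.0429 to 0.0735 and 0.0526 scaled FPKM.

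LTF fell 4.63-fold, with a log2 fold change of −2.21 in limma (standard error 0.81, adjusted p = 0.0438) and 12 of 15 animals lower. Its medians were 26.2 (0.771 to 355) and 3.48 (0.238 to 15.5). For the 5 called genes the two-sided exact sign-flip test over animals gave unadjusted p = 6.10e-04 (BPI) to 0.00671 (CTSG). The same test gave values inside this range for LCN2 (0.00220), MMP8 (0.00391) and OLFM4 (0.00537), which limma did not call. It thus did not set the called genes apart from these. CAMP had 0.0624 and MMP9 0.542 in this test. The other secondary genes were lower in 10 to 14 animals without passing the threshold: OLFM4 by −1.76 (adjusted p = 0.0739), LCN2 by −1.65 (0.0835), MMP8 by −1.36 (0.125) and CAMP by −0.74 (0.264). MMP9 had a log2 value of −0.15 (standard error 0.39, adjusted p = 0.810), with 7 animals higher and 8 lower, and its medians were 42.9 and 33.1.

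Without the animal as a replicate block, MPO and BPI were the members called on day 14 vs. day 3, and ELANE, CTSG and LTF had adjusted p = 0.0813, 0.0777 and 0.0598. With RNA integrity as a covariate, 0 members passed limma's threshold, with 7 lower at an unadjusted p under 0.05. The log2 values with this covariate were −1.43 for MPO, −1.30 for ELANE, −1.25 for CTSG, −1.52 for BPI and −2.17 for LTF (adjusted p = 0.0657 to 0.134). Limma with voom weights called BPI and ELANE, and had MPO at −2.33, CTSG at −2.34 and LTF at −2.34 (adjusted p = 0.0569, 0.189 and 0.0603). The LTF call was lost without animal 1, 3, 5, 6, 7, 8, 9, 12 or 13 (−1.97 to −2.32, adjusted p = 0.0533 to 0.0848) and with no filter on low values (−2.21, adjusted p = 0.0775), that of CTSG without animal 1 or 9 (−1.43 and −1.30, adjusted p = 0.0512 and 0.0693) and that of ELANE without animal 9 (−1.32, adjusted p = 0.0609).

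On day 14 vs. day 0, which shares its samples with both comparisons above, BPI, LCN2, MMP8 and MMP9 fell. Of the 10 members 4 were called, all lower, compared with 44.3% of all tested genes called (21.1% lower), so that the share of members called was close to that of all genes. All 10 had a lower mean, with a median of −1.24 beside −0.02 over all tested genes, and 0 were higher at an unadjusted limma p under 0.05 or with voom weights. MMP8 had the largest difference, a fall of 6.79-fold (log2 fold change −2.76, adjusted p = 0.00101, standard error 0.66), with 12 of 15 animals lower. Its medians were 16.7 scaled FPKM (1.38 to 410) and 2.85 (0.362 to 8.73). BPI fell 4.11-fold (log2 fold change −2.04, standard error 0.50, adjusted p = 0.00128), also in 12 animals, with medians of 4.24 and 1.12. MMP9 fell 2.59-fold (log2 fold change −1.37, adjusted p = 0.00447), in 11 animals, with medians of 91.0 and 33.1.

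LCN2 had medians of 4.37 (0.793 to 513) and 3.67 (0.178 to 9.73) on these days, and fell by 1.94 on the log2 scale (adjusted p = 0.0253), with a median within-animal change of −2.24 and 10 of 15 animals lower. Its call was lost without animal 7, 11, 13 or 15 (−1.67 to −1.79, adjusted p = 0.0508 to 0.0618) without the replicate block (−1.94, adjusted p = 0.0566) and with voom weights (−2.14, adjusted p = 0.0597), which called BPI, MMP8 and MMP9. OLFM4 at −1.73 and CAMP at −1.10 just missed the threshold (adjusted p = 0.0528 and 0.0618). OLFM4 passed without animal 3, 6, 8, 9 or 14 (−1.81 to −2.15, adjusted p = 0.0152 to 0.0483) and CAMP without animal 1, 3, 9 or 14 (−1.19 to −1.36, adjusted p = 0.0217 to 0.0490). OLFM4 also passed with 0.01 added (−1.98, adjusted p = 0.0477) and with genes kept at over 1 CPM in at least 15 libraries (−1.73, adjusted p = 0.0470). Both passed without scaling between libraries, OLFM4 at −2.04 (adjusted p = 0.00955) and CAMP at −1.53 (adjusted p = 0.00303), where the median over all tested genes was −0.36. MPO had a log2 value of −0.55, ELANE of −0.65, CTSG of −0.33 and LTF of −0.89, with standard errors of 0.47, 0.51, 0.51 and 0.81 and adjusted p = 0.361, 0.312, 0.627 and 0.387. With RNA integrity as a covariate BPI and MMP8 stayed called, while LCN2 (−1.96, adjusted p = 0.131) and MMP9 (−1.11, adjusted p = 0.112) lost the call.

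Mature neutrophil transcripts moved over the same days. Of the 15 marker genes 9 fell and 0 rose on day 3 vs. day 0, 14 fell on day 14 vs. day 0, and limma called 0 on day 14 vs. day 3 (2 at an unadjusted p under 0.05, and 0 called and 1 under 0.05 with voom weights). Over all tested genes 9.3%, 21.1% and 9.82% were called lower in these comparisons. The median log2 fold changes of the markers were −0.86, −1.22 and −0.23. In the last of these comparisons the 4 primary genes and LTF fell, and 0 of the 15 markers passed, although 14 of them were lower in sign. The mean of the marker list changed by −0.26 ± 0.46 there (SD), and was lower in 11 animals. To give the members relative to this list, each library was centred on the mean log2 level of the 15 genes and all genes were fitted again, which placed the median of all tested genes at 0.80, 0.97 and 0.17 for day 3 vs. day 0, day 14 vs. day 0 and day 14 vs. day 3. On this scale MPO rose by 1.87 on day 3 vs. day 0 (adjusted p = 2.05e-04), ELANE by 1.67, CTSG by 1.82 and LTF by 2.23, 4 of 10 members compared with 72.3% of all tested genes called higher. MMP9 was at −0.30 (adjusted p = 0.233) and BPI at 0.50 (adjusted p = 0.184). The median of the 10 members was 0.72.

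Relative to the neutrophil list, MMP8 fell by 1.64 on day 14 vs. day 0 (adjusted p = 8.27e-04) and BPI by 0.93 (adjusted p = 0.0140), in a comparison in which 0.421% of all tested genes were called lower. MMP9 was at −0.22 (adjusted p = 0.387) and LCN2 at −0.84 (adjusted p = 0.102). MPO, ELANE, CTSG, BPI and LTF were called lower again on day 14 vs. day 3, at log2 values of −2.0 to −1.43, where 0.229% of all tested genes were called lower. This scaling shifts all genes of a library the same way, and members with small or moderate falls moved above 0 together with the other genes: on day 3 vs. day 0 BPI, CAMP and LCN2 went to 0.50, 0.56 and 0.61, below the median of 0.80 over all tested genes, and on day 14 vs. day 0 MPO, ELANE, CTSG, LTF and CAMP went to 0.05 to 0.36, below the median of 0.97.

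Other blood cells shifted as well, and their part in the members' changes was not tested. Among all tested genes 19.6% were called on day 3 vs. day 0 (10.3% higher, 9.3% lower). The share was 44.3% on day 14 vs. day 0 (23.2% higher, 21.1% lower). For day 14 vs. day 3 it was 24.0% (14.2% higher, 9.82% lower). From day 3 to day 14, when the primary genes and LTF fell, 4 of 6 monocyte genes, 4 of 7 platelet genes and 3 of 5 B cell genes fell too, and 5 of 8 reticulocyte, 2 of 6 NK cell, 2 of 5 T cell and 1 of 6 basophil and mast cell genes rose. Against day 0, rises by day 3 were seen in 6 of 8 reticulocyte genes, 7 of 7 platelet genes, 5 of 6 NK cell genes and 2 of 6 monocyte genes, and on day 14 vs. day 0 the numbers that rose were 8, 5, 5 and 0, with 3 monocyte genes lower. Of 5 T cell genes 2 rose on day 14 vs. day 0, of 5 B cell genes 1 fell, and of 6 basophil and mast cell genes 4 rose. With voom weights 3 of the 7 platelet genes passed on day 14 vs. day 0 in place of 5. Limma called 0 of 4 eosinophil genes on any pair of days, with or without voom weights, and at an unadjusted p under 0.05 there were 0 in either fit for both comparisons with day 0, and 1 (2 with voom weights) for day 14 vs. day 3. Of the 6 genes of haematopoietic progenitors FLT3 and CD34 rose on day 3 vs. day 0 (log2 fold changes of 1.11 and 0.56, adjusted p = 0.00135 and 0.0114), each in 14 of 15 animals, and FLT3 and SPINK2 on day 14 vs. day 0 (0.82 and 0.79), with 1 called on day 14 vs. day 3.

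Further granule genes were taken from lists of known granule proteins. Of 8 tested genes of primary granules only GUSB (a lysosomal glucuronidase) rose on day 3 vs. day 0 and only PRSS57 (a serine protease related to elastase) on day 14 vs. day 0, by 0.26 and 0.78 (adjusted p = 0.0246 and 0.00351). PRTN3, the proteinase 3 gene and a close relative of ELANE, had values of 0.58 and −0.23 on these comparisons (adjusted p = 0.172 and 0.553) and fell by 0.81 from day 3 to day 14 (adjusted p = 0.0433), between medians of 0.194 and 0.0443 scaled FPKM. That call was lost with voom weights (−1.70, adjusted p = 0.0627). The list medians were 0.16, 0.05 and 0.07 for day 3 vs. day 0, day 14 vs. day 0 and day 14 vs. day 3. In the same order 19.6%, 44.3% and 24.0% of all tested genes were called. Levels in this list differed widely, with day 0 medians from 0.0444 scaled FPKM (PRTN3) to 1380 (SRGN). Which cells held these transcripts was not tested, so the list medians say little of MPO, ELANE and CTSG. DEFA4 and RNASE3 were not analysed here.

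The other secondary granule genes were lower where they changed. On day 3 vs. day 0 3 of 11 were called, TCN1 (a vitamin B12 carrier, −1.77), CD177 (−1.50) and CEACAM8 (−1.17), both surface molecules of neutrophils. By day 14 it was 5 of 11 against day 0, with TCN1 at −2.08, PGLYRP1 (a peptidoglycan-binding protein) at −1.72 and CD177 at −1.58. CEACAM8 fell from a median of 103 to 53.1 scaled FPKM in 15 of 15 animals (log2 fold change −1.43, adjusted p = 9.15e-06). CHIT1, a chitinase, was the 1 gene called on day 14 vs. day 3 by limma (−1.97, adjusted p = 0.00906). With voom weights the numbers called were 2, 4 and 2 for day 3 vs. day 0, day 14 vs. day 0 and day 14 vs. day 3: TCN1 on the first (−2.13, adjusted p = 0.0609) and PGLYRP1 on the second (−2.06, adjusted p = 0.0847) were lost, and ABCA13 on the third (−1.65, adjusted p = 0.0168) was gained. The list medians were −0.19, −1.20 and −0.92. In the same order 19.6%, 44.3% and 24.0% of all tested genes were called, and 9.3%, 21.1% and 9.82% were called lower. On day 14 vs. day 0 the share of the list called was thus close to that of all genes.

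Genes of tertiary granules and secretory vesicles, like MMP9, were lower where they changed. Of 8 tested, 3 were lower on day 3 and 5 on day 14, each against day 0. The shares of all tested genes called lower were 9.3% and 21.1%, and 9.82% on day 14 vs. day 3. In either direction these shares were 19.6%, 44.3% and 24.0%. ALPL (alkaline phosphatase, −1.36 and −1.81), MME (neprilysin, −1.30 and −1.06) and MMP25 (a membrane-bound matrix metalloproteinase, −0.97 and −1.34) fell on both, and 2 of the 8, FCN1 and CR1, fell on day 14 vs. day 3. Among 9 transcription factors of granulocyte development, 2 fell on day 3 vs. day 0 (CEBPB and RUNX1) and 6 on day 14 vs. day 0, where GFI1, a repressor needed for neutrophil differentiation, rose by 0.55 (adjusted p = 0.00211). CEBPE, which drives the transcription of secondary granule genes, fell by 1.27 on day 14 vs. day 0 (adjusted p = 0.0230, lower in 10 animals) from a median of 2.58 scaled FPKM to 1.78. CEBPB fell by 1.01 (adjusted p = 0.00436) and SPI1, a factor of the myeloid lineage, by 0.90 (adjusted p = 2.96e-04). Limma called 0 of the 9 on day 14 vs. day 3, with or without voom weights, and 2 had an unadjusted p under 0.05 (3 with voom weights).

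The members were also ordered by how alike they moved within animals. Pearson's r of log2 levels was computed over the 45 libraries after subtraction of each animal's own mean, as a description, since libraries of an animal and of a day are not independent. MPO, ELANE and CTSG formed the tightest set, with r of 0.952 to 0.967 between each other, and each had the other 2 as its nearest of 14403 genes. DEFA1, a neutrophil defensin with closely related copies among which reads can be divided, followed for MPO and ELANE with r of 0.920 and 0.905, and LOC103215303 for CTSG with 0.913. LTF stood next to CRISP3, a secondary granule protein (0.967), and DEFA1 (0.951), and OLFM4 next to ABCA13 (0.956) and CRISP3 (0.942).

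CAMP, LCN2, BPI and MMP8 made up the middle of the series. CAMP and LCN2 had LOC103247990, LOC103230984 and PGLYRP1 as their 3 nearest genes (r of 0.938 to 0.966), and BPI had MMP8 as its nearest (0.940) with the same 2 unnamed genes behind it. MMP8 was nearest to PGLYRP1 (0.949) and TCN1 (0.944). BPI, a primary granule gene by its protein, was thus closer in its profile to MMP8 than to MPO, with which its r was 0.783. MMP9 was nearest to PADI4 (0.958), which citrullinates histones and belongs to the mature neutrophil list, SIGLEC5 (0.955) and CKAP4 (0.941). Of the members MMP8 came closest to it, at place 150 with r of 0.862, and MPO lay at place 2771 with 0.375. Over all 45 pairs of members r ran from 0.312 (CTSG and MMP9) to 0.967 (MPO and CTSG).

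**Figure D5:**
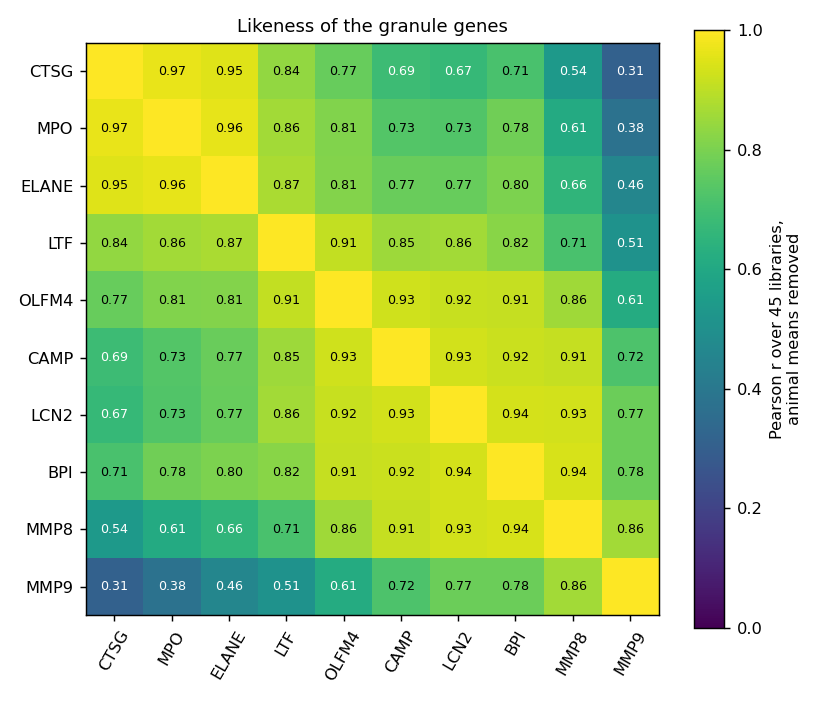
Pearson's r between each pair of the 10 granule genes over 45 libraries, after removal of each animal's mean, with the genes placed from CTSG to MMP9 after their values were seen. Values run from 0.31 between CTSG and MMP9 to 0.97 between CTSG and MPO, and MPO, ELANE and CTSG stand together at 0.95 or more.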

How the data were processed

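Whole-blood RNA of 15 animals at 3 time points was sequenced as stranded libraries depleted of ribosomal and globin RNA, with paired-end reads. Per the study's methods and the labels, the authors made base calls with bcl2fastq 2.17, aligned reads to Chlorocebus_sabeus 1.1 (STAR) and counted fragments on genes (HTSeq). The deposited FPKM were made by the authors from these counts, with no scaling between libraries beyond the total on genes. Of 1011768 values above 0, 100% were whole multiples of 1 fragment (tolerance 0.0001), so fragments per gene were recovered. Precision is set by those fragments, and a library at 0 was given the limit of 3 fragments, which covers counting error only. Genes with over 0.5 CPM in at least 3 libraries were kept. FPKM were divided by TMM factors (0.538 to 1.492, median 1.142, 1.127 and 0.789 on days 0, 3 and 14), 0.1 was added, and log2 values were fitted with limma 3.58.1 in R 4.3.3, with trended variance and the animal as a replicate block, since the comparisons are within animals. After removal of time point means, r across genes averaged 0.328 within animals (45 pairs) and −0.038 between animals (945 pairs). Low genes are understated by the added 0.1. Within-animal changes of single members were also tested by the two-sided exact test of all 32768 sign patterns of 15 animals (sign-flip test).

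All members were named, and of each other list at most the 3 called genes with the largest change on day 14 vs. day 0 (of granule lists also on day 3 vs. day 0), plus the 3 nearest genes of each member among those with a mean of at least 1 CPM. CD34, SPINK2, PROM1, CRHBP, FCN1, CR1, CHIT1, GUSB, PRTN3, SRGN, GFI1 and RUNX1 were singled out after their values were seen. Members and lists (other primary, secondary and tertiary granule genes, transcription factors, and markers of mature neutrophils, reticulocytes, platelets, monocytes, T, B and NK cells, eosinophils, basophils and progenitors) were chosen with earlier results of these data known. Alternatives were other scalings, filters, added values and variance estimates, the fit without the block, the RNA integrity number as a covariate, each animal left out in turn and, chosen after seeing the data, voom weights. The table of gene symbols used here is of another assembly than the files, so no coordinates are given.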

Additional observations from a re-analysis of the deposited data

How the results depend on the processing

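The number of members called on day 3 vs. day 0 was 1 (MMP9, lower). With scaling to mature neutrophil genes it was 4, all higher, compared with 72.3% of all tested genes called higher. A covariate for RNA integrity number gave 2, both higher. MMP9 lost its call in both of these fits, so the counts hold other genes in the other direction. The number was 0 to 2, in either direction, when each animal was left out. On day 14 vs. day 0 it was 4, 6 without scaling, 5 with 0.01 added or with the stricter filter on low values, 3 without the block or with voom weights, 2 with neutrophil scaling, 2 with the RNA integrity number, and 3 to 6 with animals left out. On day 14 vs. day 3 it was 5, 9 without scaling, 4 with no filter on low values, 2 without the replicate block, 0 with the RNA integrity number (7 at an unadjusted limma p under 0.05), 2 with voom weights, and 2 to 5 with animals left out. The causes were not tested. The replicate block changed no other count of members by more than 1.5 times, and of the single calls it added LCN2 on day 14 vs. day 0 and ELANE, CTSG and LTF on day 14 vs. day 3.

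Over all tested genes, limma called 3673 genes on day 3 vs. day 0, then 8300 for day 14 against day 0 and 4504 for day 14 against day 3. Without the block these were 2337, 6756 and 2543, with the RNA integrity number 2890, 4148 and 1900, and without animal 8 the last was 2789. With neutrophil scaling they were 13551 higher and 52 lower, 14289 and 79, and 1222 and 43. Without scaling, 1741 genes were higher and 9334 lower on day 14 vs. day 0, in place of 4343 and 3957, with a median of −0.36, and 936 and 8655 on day 14 vs. day 3, in place of 2662 and 1842. Without scaling there were 2465 calls on day 3 vs. day 0.

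Of 810 values of single members under alternatives, 721 kept their direction and side of the threshold, 41 lost their call, 26 gained one and 22 changed sign, and none of the 22 was called in either form. Neutrophil scaling placed the median of all tested genes at 0.80, 0.97 and 0.17 in the 3 comparisons, and the members that crossed 0 with it stayed below that median: BPI 0.50, CAMP 0.56 and LCN2 0.61 on day 3 vs. day 0, MPO 0.32, ELANE 0.20, CTSG 0.36, LTF 0.23 and CAMP 0.05 on day 14 vs. day 0, and MMP9 0.08 on day 14 vs. day 3. With the RNA integrity number those that changed sign were MPO 0.01 and CTSG 0.33 on day 14 vs. day 0. The change of OLFM4 by day 3 was −0.14 with 1 added, −0.12 with voom weights and −0.37 to 0.43 with animals left out, where LCN2 was −0.73 to 0.14. All 459 alternative values of the ratios to MMP9 lay within 1 SD of the value reported, and 3 changed sign: OLFM4 on day 14 vs. day 0 (0.18 with 1 added, 0.05 without animal 5) and MMP8 by day 3 (0.01 without animal 5). Medians of 8 to 23 fragments for MPO, ELANE and CTSG on day 0 limit what can be said of single animals.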
